A study of Mus musculus with 2 samples.

Results

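Immune, microglial and vessel-wall microRNAs (miRNAs) were followed in mouse striatum as 8 rows of a table of 3200 rows. The 5 immune rows were miR-142-5p (MIMAT0000154), miR-142-3p (MIMAT0000155), miR-146a-5p (MIMAT0000158), miR-150-5p (MIMAT0000160) and miR-155-5p (MIMAT0000165). The 3 vessel-wall rows were miR-126a-5p (MIMAT0000137), miR-126a-3p (MIMAT0000138) and miR-145a-5p (MIMAT0000157). They were picked by identifier, from knowledge of where these miRNAs are made; the rule uses no measured value, but it was written with earlier results of these data known. One sample was R6/2 and the other wild-type, both from males aged 10 weeks, and the labels give neither the number of animals behind each array nor any treatment. R6/2 mice express exon 1 of human huntingtin with an expanded CAG repeat from a transgene, keep their own mouse huntingtin genes, and serve as a model of Huntington's disease. With 1 array per genotype there is no replicate error and no test, so each difference below is a difference between 2 arrays.

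A miRNA is cut from a hairpin precursor, and either arm of the hairpin, 5p or 3p, can yield a mature strand that guides repression of messenger RNAs through its seed, a short stretch near its 5′ end. miR-142 is made in cells of the haematopoietic (blood-forming) lineage, microglia among them. miR-146a and miR-155 are induced by inflammatory signalling in myeloid cells, where miR-146a restrains that signalling and miR-155 promotes it. miR-150 is best known from mature lymphocytes. miR-126a is made in endothelial cells from within the gene Egfl7, and miR-145a in smooth muscle cells and pericytes of the vessel wall.

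Mature strands were matched by name in RefSeq (assembly GRCm38.p6) for 5 of the 8 miRNAs and are shown to make clear what each row is meant to measure and how distinct the seeds are. Each is written 5′ to 3′ with its seed, bases 2 to 8, in capitals.
miR-142-5p: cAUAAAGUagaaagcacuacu
miR-142-3p: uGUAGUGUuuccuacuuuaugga
miR-146a-5p: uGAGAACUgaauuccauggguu
miR-155-5p: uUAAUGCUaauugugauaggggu
miR-126a-3p: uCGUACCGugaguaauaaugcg
The 5 seeds were all different. Among the other mature mouse miRNAs of that table, 1 had the seed of miR-146a-5p, namely miR-146b-5p, and 0 had any of the other 4 seeds. Over its 22 bases miR-146b-5p differs from miR-146a-5p at 2, and whether the miR-146a-5p probe also captures it was not given in the sources used here. For each of the other 4 strands the nearest mature miRNA of the same length differed at 11 bases.

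miR-142 is the immune hairpin of which both arms were measured. It lies on the plus strand at chr11:87756864-87756927 (GRCm38.p6) and is shown with the arms miR-142-5p and miR-142-3p in capitals.
Mir142: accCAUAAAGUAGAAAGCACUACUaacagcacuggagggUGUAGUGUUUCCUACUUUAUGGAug
In that annotation another hairpin, Mir142b, lies on the opposite strand over the same bases. The Mir126a hairpin lies on the plus strand at chr2:26591357-26591429, inside the protein-coding gene Egfl7, and Mir126b lies opposite it. The Mir155 hairpin, at chr16:84714140-84714204, lies inside the non-coding gene Mir155hg, its host transcript. The Mir146 hairpin, which yields miR-146a, lies on the minus strand at chr11:43374397-43374461, and the Mir150 hairpin at chr7:45121757-45121821. No other gene of the table overlaps either of these last hairpins.

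The deposited table holds identifiers and no names. The names used here are those of miRBase for the first 45 rows, MIMAT0000121 to MIMAT0000165, where the miRBase numbers run through mouse miRNAs without a gap. No file used here pairs them, so each name rests on the identifier of its row.

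Values are normalized intensities on a linear scale, and on each array the median of the filled rows is 25. Whether the intensities of different miRNAs compare as amounts was not tested. Of the 3200 rows, 1369 were filled on both arrays. Over these rows the median log2 ratio, R6/2 over wild-type, was 0.30, which is 1.23-fold, and 84.3% of rows had a ratio above 0 and 15.3% below 0 as deposited. Each ratio is therefore given as deposited and again after centring, that is, after this median was taken off. Rows were also placed in 4 equal classes by the geometric mean of their 2 intensities, because the median ratio went from 0.45 in the dimmest class to 0.20 in the brightest.

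As a check of tissue and names, the 7 rows of neuron-enriched miRNAs (miR-124-3p, miR-128-3p, miR-9-5p, miR-9-3p, miR-132-3p, miR-137-3p and miR-138-5p) were all in the brightest class, with intensities from 406.7 to 26311.6 on the R6/2 array and from 1183.7 to 31943.2 on the wild-type array. The red-cell miRNA miR-144-3p read 8.2 in R6/2 and 8.1 in wild-type, in the dimmest class. The epithelial miR-141-3p read 17.1 and 20.2, in the next class up. The muscle miRNAs miR-1a-3p and miR-133a-3p read 100.3 and 52.1 in R6/2 and 133.7 and 58.6 in wild-type. miR-1a-3p was thus in the brightest class, like the neuronal rows, and miR-133a-3p in class 3 of 4, and both read higher than either arm of miR-142 on both arrays. Of the named rows in none of the lists, 21 were also in the brightest class and 5 in class 3. The class of the neuronal rows is therefore a weak check. The check holds for the red-cell and epithelial rows and not for the muscle rows.

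The ratios of the immune miRNAs were spread out, with the miR-142 arms at either end, while those of the vessel-wall miRNAs lay close to the overall shift. The miR-142 rows were dimmer, in class 3 of 4, and the part of brightness in this spread was not tested. In the brightest class, the immune miR-146a-5p and miR-150-5p lay 0.20 and 0.34 above the class median, and the vessel-wall miR-145a-5p lay 0.19 above it. As deposited, 6 of the 7 miRNAs filled on both arrays were higher in R6/2, against 84.3% of all rows filled on both arrays. The remaining 1, miR-142-5p, was lower, against 15.3%. Of the 7, miR-142-3p alone was at least 1.5-fold higher as deposited, against 21.5% of all rows filled on both arrays, and 0 were at least 1.5-fold lower, against 1.53%. After centring, 0 of the 7 were at least 1.5-fold higher, against 9.42% of rows, and 0 at least 1.5-fold lower, against 5.41%. At 2-fold, 0 of the 7 passed in either direction on either scale. Of all rows, 6.72% were at least 2-fold higher as deposited and 2.99% after centring, and 0.438% and 0.95% were at least 2-fold lower. Counts of 6, 1 and 0 among 7 rows do not stand apart from these shares.

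**Figure D1:**
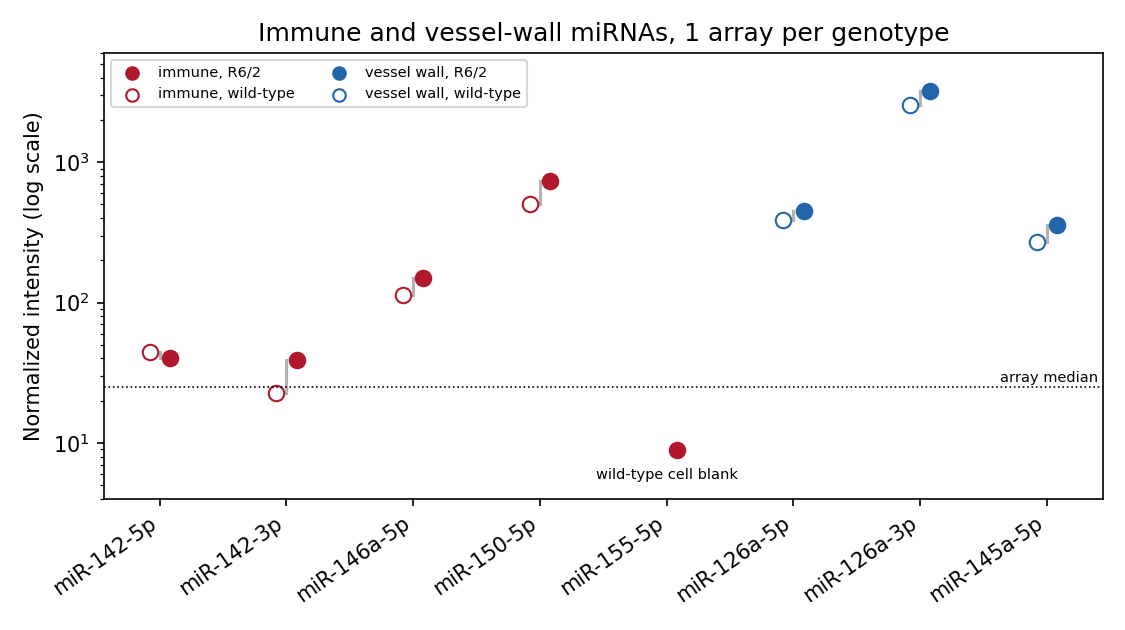
Normalized intensity (log scale) of the 8 miRNAs in the R6/2 array (filled points) and the wild-type array (open points), with immune miRNAs in red, vessel-wall miRNAs in blue and a dotted line at the array median of 25. The R6/2 point is the higher of each pair except for miR-142-5p, and miR-155-5p has a value of 8.9 in R6/2 alone.

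The arms of miR-142, the marker of haematopoietic cells, microglia among them, went in opposite directions. miR-142-5p (MIMAT0000154) read 40.2 in R6/2 and 44.2 in wild-type, so its log2 ratio was -0.14 as deposited and -0.44 after centring. miR-142-3p (MIMAT0000155) read 39.2 in R6/2 and 22.6 in wild-type, 1.73-fold higher in R6/2, with a log2 ratio of 0.79 as deposited and 0.49 after centring. On the wild-type array miR-142-3p was below the array's median of 25, and miR-142-5p was above it on both arrays.

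Both miR-142 rows were of middling intensity. By geometric mean, 42.2 for the 5p arm and 29.8 for the 3p arm, they fell in class 3 of 4, whose lower edge is at 29.5, so the 3p arm sat at that edge. In class 3 the ratio had a robust SD (scaled median absolute deviation across rows) of 0.23 and ran from -0.21 at the 5th percentile to 0.90 at the 95th. In class 2, just below, the robust SD was 0.31 and the same percentiles were -0.085 and 1.03. The ratio of miR-142-5p was higher than that of 7.31% of the rows in its class, and the ratio of miR-142-3p higher than 92.4%. Each arm was thus toward one end of the rows of like intensity and inside those percentiles.

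The difference between the arms, 3p minus 5p, was 0.93 on the log2 scale as deposited. By arithmetic it is the same on any scale that takes 1 constant off every ratio. It is not the same on every scale. Adding the lower quartile of each array to its intensities gave ratios of -0.13 for 5p and 0.53 for 3p, which lie closer together. For miR-126a, whose arms were also both measured, the difference as deposited was 0.12. Of the other named rows, 3 more hairpins have both arms, and they were added after their values had been seen. The arms of miR-9, a neuronal miRNA, had log2 ratios as deposited of -0.050 for 5p and -0.10 for 3p. Those of miR-30a, which many tissues make, had 0.0049 and 0.13, and those of miR-140, known best from cartilage, 0.62 and 0.48. The absolute difference between arms in the 4 hairpins other than miR-142 ran from 0.054 to 0.15. The rows of these 4 hairpins were brighter than the miR-142 rows on both arrays, the lowest value among them being 185.0 for miR-140-5p in wild-type, so the hairpins differ in brightness as well as in identity. The part of intensity in the gap between the miR-142 arms was not tested.

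**Figure D2:**
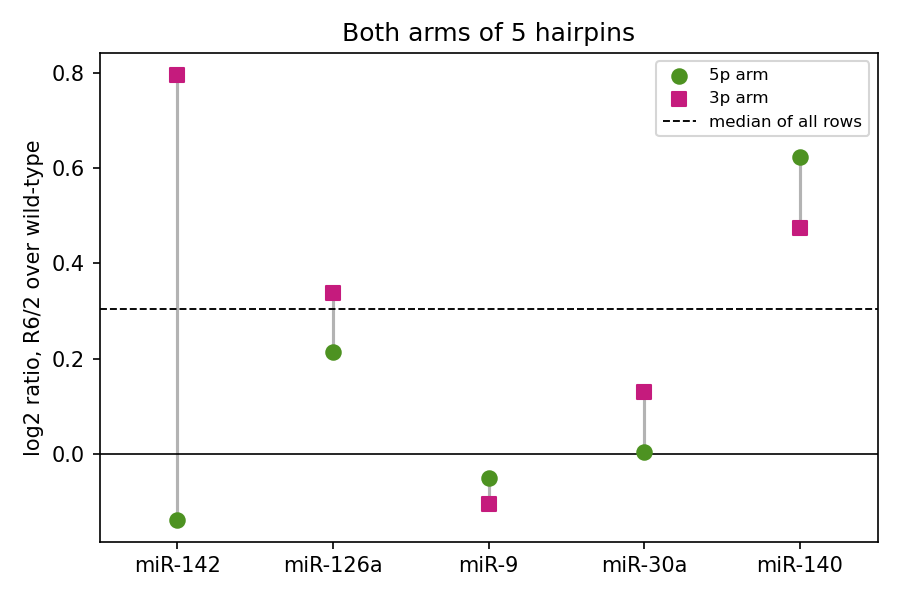
Log2 ratio of R6/2 over wild-type, as deposited, for the 5p arm (circles) and the 3p arm (squares) of 5 hairpins, with the median of all rows filled on both arrays as a dashed line. The arms of miR-142 lie 0.93 apart, on opposite sides of 0, and those of the other 4 hairpins at most 0.15 apart.

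miR-146a-5p (MIMAT0000158), induced by inflammatory signalling and a brake on it, read 150.5 in R6/2 and 113.6 in wild-type. It was 1.32-fold higher in R6/2, with a log2 ratio of 0.41 as deposited and 0.10 after centring. Its ratio was higher than that of 82.5% of rows in the brightest class, where the robust SD was 0.22, and it lay 0.20 above that class's median. The row of miR-146b-5p, which has the same seed, is not analysed here, because rows past the first 45 carry no safe name.

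miR-150-5p (MIMAT0000160), best known from lymphocytes, read 736.2 in R6/2 and 506.0 in wild-type, well inside the brightest class. The 5p and 3p arms of miR-142 read far lower, 40.2 and 39.2 in R6/2 and 44.2 and 22.6 in wild-type. Which cells the miR-150-5p signal came from was not tested. miR-150-5p was 1.45-fold higher in R6/2, with a log2 ratio of 0.54 as deposited and 0.24 after centring. Among the rows of the brightest class its ratio was higher than 91.2%, and it was 0.34 above that class's median. This deviation was the largest among the 5 immune and vessel-wall rows of the brightest class, and the ratio was short of 1.5-fold both as deposited and after centring.

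miR-155-5p (MIMAT0000165), the inflammatory miRNA, read 8.9 in R6/2 and had a blank cell in wild-type, so it has no ratio. It was the 1 blank among the 45 named rows. Of the 104 rows with an R6/2 intensity from 8 to below 10, 50 (48.1%) were blank in wild-type, and the filled ones lay between 4.7 and 12.1 there. In all, 281 rows were filled in R6/2 alone and 7 in wild-type alone, and the meaning of a blank was not given in the sources used here. A blank opposite a value near 8.9 was thus common in this table, and no direction is read from it.

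Over the 4 immune miRNAs with a ratio, the median log2 ratio was 0.47 as deposited and 0.17 after centring, and the range as deposited was from -0.14 to 0.79. Over all 1369 rows the median was 0.30 as deposited. In order of ratio, miR-142-3p was highest, followed by miR-150-5p, miR-146a-5p and miR-142-5p. The steps between neighbours in this order were 0.25, 0.14 and 0.54, and without replicates none can be set against an error. The striatum was measured in bulk, so fewer cells of a type and less RNA per cell cannot be told apart.

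The vessel-wall miRNAs had close ratios. The endothelial miR-126a-3p (MIMAT0000138) read 3228.0 in R6/2 and 2552.7 in wild-type, with a log2 ratio of 0.34 as deposited and 0.035 after centring. Its partner arm miR-126a-5p (MIMAT0000137) read 450.6 in R6/2 and 388.1 in wild-type, with a ratio of 0.22 as deposited and -0.088 after centring. Both arms were higher in R6/2 as deposited, and after centring they lay on either side of 0.

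miR-145a-5p (MIMAT0000157), the miRNA of smooth muscle cells and pericytes, read 357.7 in R6/2 and 271.4 in wild-type. It was 1.32-fold higher in R6/2, with a log2 ratio of 0.40 as deposited and 0.095 after centring. The vessel-wall median ratio was 0.34 as deposited and 0.035 after centring, with a range from 0.22 to 0.40 as deposited. All 3 rows were in the brightest class, whose own median was 0.20, and lay 0.011, 0.13 and 0.19 above it for miR-126a-5p, miR-126a-3p and miR-145a-5p. The endothelial and the mural miRNAs thus stayed within the class's robust SD of 0.22 of its median. So did the immune miR-146a-5p of that class, at 0.20, while miR-150-5p, at 0.34, did not. That SD is a spread across rows and not an error, and the share of the class beyond it was not counted. The ratio of miR-150-5p as deposited, 0.54, was still below the 95th percentile of the class, 0.64.

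**Figure D3:**
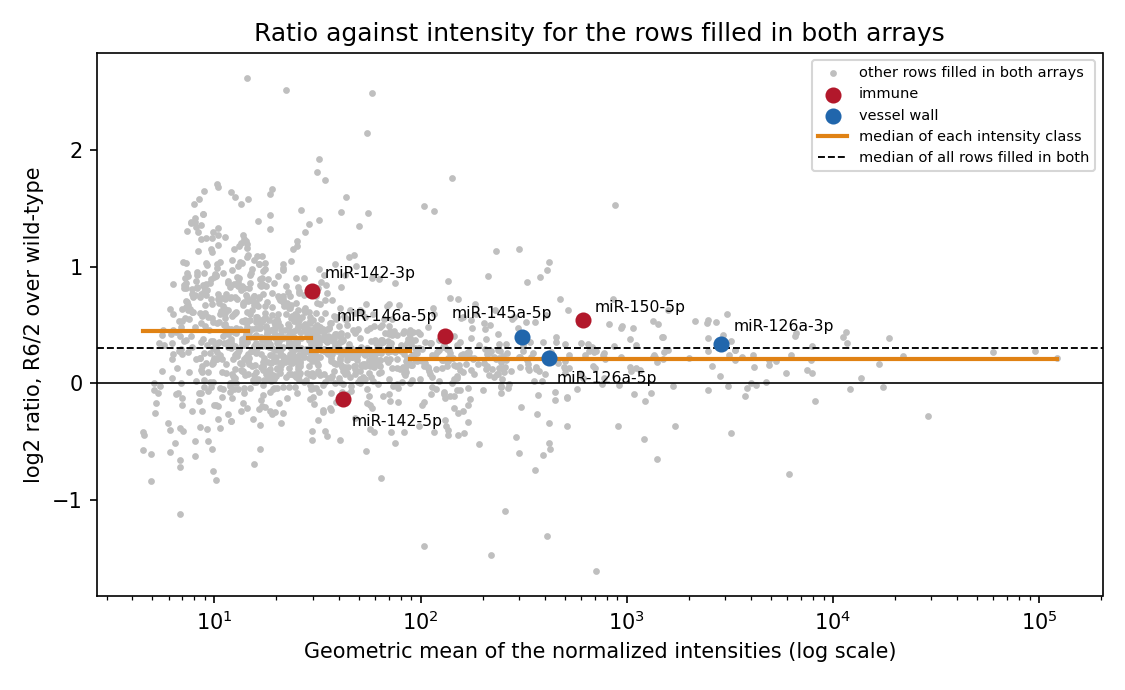
Log2 ratio of R6/2 over wild-type as deposited against the geometric mean intensity (log scale) for the 1369 rows filled on both arrays, with immune miRNAs in red, vessel-wall miRNAs in blue, the median of each intensity class in orange and the overall median of 0.30 dashed. The 3 vessel-wall points lie between 0.22 and 0.40, and the 4 immune points spread from -0.14 to 0.79 with the miR-142 arms at either end.

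All 7 miRNAs with a ratio lay between the 5th and the 95th percentile of the ratios in their own intensity class. In the brightest class these percentiles were -0.43 and 0.64. Among all 1369 rows the ratio of miR-142-5p was higher than that of 8.69% of rows and that of miR-142-3p higher than 87.5%. For the other 5 miRNAs this share was between 36.9% for miR-126a-5p and 75.7% for miR-150-5p.

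After centring, 5 of the 7 miRNAs had a ratio above 0 and 2 below, against 50.0% of all rows in each direction. Above 0 were also 29.8% of rows in the brightest class and 9 of the 37 other named rows (24.3%), and these differences in share were not tested. The 37 other named rows had a median ratio of 0.14 as deposited. Their lowest was -1.61 for the neuronal miR-132-3p, which read 406.7 in R6/2 and 1238.9 in wild-type. Their highest was 0.91 for miR-130a-3p, which read 520.6 and 277.4.

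The neuron-enriched miRNAs had a median ratio over 7 rows of -0.15 as deposited and -0.45 after centring. Of these 7, 6 were below 0 as deposited, against 15.3% of all rows and 22.2% of the brightest class. After centring 6 were again below 0, against 50.0% of all rows and 70.2% of the brightest class. The exception was miR-137-3p, with a ratio of 0.51 as deposited and 0.21 after centring. At least 1.5-fold lower as deposited were 2 of the 7, against 1.53% of all rows and 2.92% of the brightest class. After centring the count was again 2, against 5.41% and 8.48%. Their intensities added up to 56328.6 in R6/2 and 67172.8 in wild-type. The vessel-wall rows added up to 4036.3 and 3212.2, and the immune rows to 975.0 and 686.4, with miR-155-5p in the R6/2 sum alone. Most of each immune sum was miR-150-5p, with 736.2 in R6/2 and 506.0 in wild-type. These are sums of intensity and not of amount. Intensities are relative within each array, and the part of the neuronal rows in the ratios of the immune and vessel-wall miRNAs was not tested.

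Likeness to the other named rows could be measured only by the distance between log2 ratios as deposited, which rest on 2 arrays. For miR-145a-5p and miR-146a-5p the nearest row was the other of the pair, at a distance of 0.0075. miR-142-5p was nearest to the neuronal miR-138-5p, with ratios of -0.14 and -0.15. miR-142-3p was nearest to miR-152-3p, with 0.79 and 0.86. miR-150-5p was nearest to miR-127-3p, with 0.54 and 0.51. miR-126a-5p was nearest to miR-154-5p, with 0.22 for both, and miR-126a-3p to miR-125b-5p, with 0.34 and 0.35.

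The arrays were also scaled in other ways, which gave 8 scales in all, each from the same 2 arrays. The ratio of miR-142-3p ran from 0.41 to 0.79 and was above 0 on all 8, and that of miR-142-5p ran from -0.47 to -0.13 and was below 0 on all 8. miR-150-5p ran from 0.24 to 0.54, miR-146a-5p from 0.10 to 0.41 and miR-145a-5p from 0.095 to 0.40, each above 0 on all 8. miR-126a-5p ran from -0.088 to 0.22, with 1 scale below 0, so its direction depended on the scale. miR-126a-3p ran from 0.00, under quantile normalization, to 0.34, and was above 0 on the 7 other scales.

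**Figure D4:**
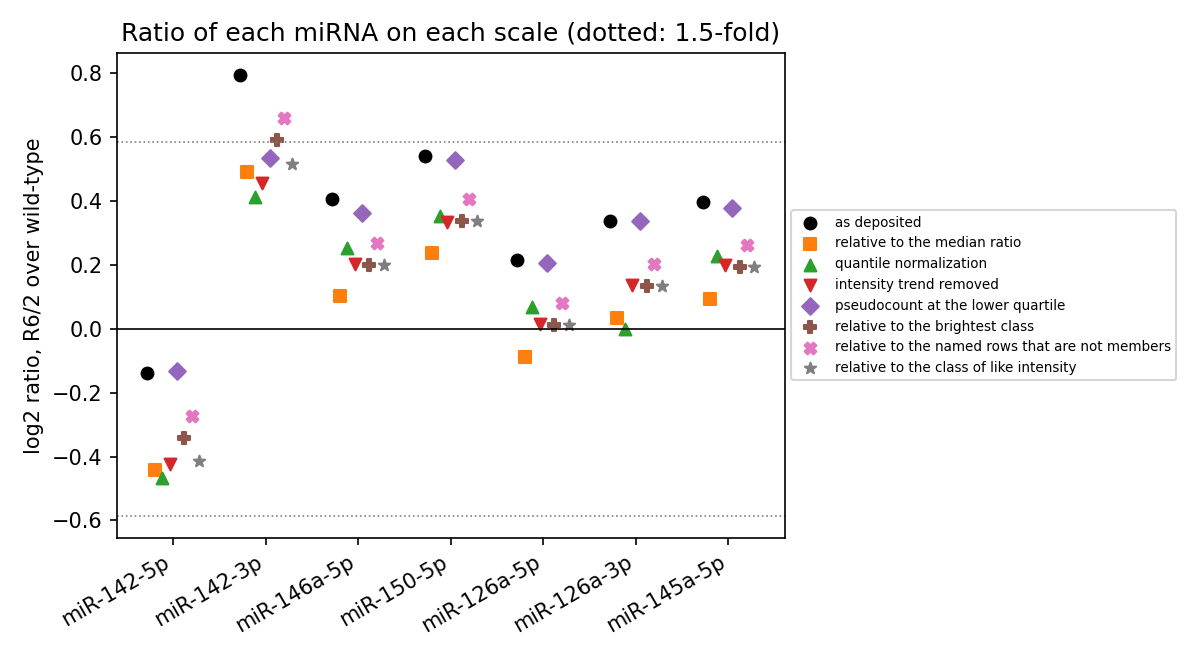
Log2 ratio of R6/2 over wild-type for the 7 miRNAs filled on both arrays on 8 scales (symbols), with dotted lines at a 1.5-fold difference in either direction. miR-142-3p runs from 0.41 to 0.79 and passes the upper dotted line on 3 of the scales, miR-142-5p stays below 0, and the miR-126a arms reach 0 or cross it.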

How the data were processed

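Total RNA of striatum was extracted with TRIzol, labelled with the single dye Hy5 and hybridised to 3D-Gene mouse miRNA chips, 1 sample per array, per the labels' protocols. The authors deposited normalized intensities, linear and with blanks; on each array the median of the filled rows is 25. Background correction, scaling and the rule for blanks were not given in the sources used here.

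Log2 ratios (R6/2 over wild-type) were computed from these intensities for the 1369 rows filled on both arrays, with no pseudocount. Differences of at least 1.5-fold and 2-fold were counted, without a test, since each genotype has 1 array, and the number of arrays limits the precision. Rows named are the 8 members, the marker lists for neuron, muscle, epithelium and red cell, the nearest named row to each member by ratio, and the extremes of the other named rows. The members and lists were chosen with earlier results of these data known. Alternatives were centring on 4 reference sets (all rows, the brightest class, the other named rows, and the class of like intensity), quantile normalization, lowess trend removal (span 0.4), and a pseudocount equal to the lower quartile of the array. The counting was tested on simulated data with planted changes larger than 2-fold and a narrower spread than in the data. It therefore does not show how well ratios near the fold limits are counted. Python 3.11.15, numpy 2.4.6, pandas 2.3.3, statsmodels 0.14.6 and matplotlib 3.10.9 were used.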

Additional observations from a re-analysis of the deposited data

How the results depend on the processing

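No paired analysis was possible because there was a single array per genotype, and for the same reason no replicate could be left out. A log2 ratio was taken as moved at a change of 0.25 or above. Of 49 member ratios under 7 other scales, 15 moved and 34 did not. Where 1 constant is taken off every ratio, that constant alone sets whether the ratios move, so those outcomes are no check. It was 0.30 for the median ratio, above the limit. For the brightest class it was 0.20 and for the other named rows 0.14, both below the limit. Centring on the class of like intensity took 0.28 off rows of class 3, above the limit. It took 0.20 off rows of the brightest class, below the limit, so those outcomes are no check either. Centring on the median ratio, which takes 0.30 off each, gave -0.088 for miR-126a-5p, 0.035 for miR-126a-3p, -0.44 for miR-142-5p, 0.49 for miR-142-3p, 0.095 for miR-145a-5p, 0.10 for miR-146a-5p and 0.24 for miR-150-5p, with medians of 0.17 (immune) and 0.035 (vessel wall). Quantile normalization gave 0.00 for miR-126a-3p, -0.47 for miR-142-5p, 0.41 for miR-142-3p and a vessel-wall median of 0.068. Trend removal gave -0.42 for miR-142-5p and 0.46 for miR-142-3p, and centring on the class of like intensity, an alternative chosen after seeing the data, gave -0.41 and 0.52. The pseudocount gave 0.53 for miR-142-3p. The count of miRNAs at least 1.5-fold higher, 1 as deposited, was 0 under these 5 alternatives and at a 2-fold limit, and 1 relative to the brightest class or the other named rows. The count at least 1.5-fold lower was 0 under every alternative run. Beyond the constants taken off, the cause was not tested. Signal over background was not given in the sources used here, and the blank of miR-155-5p in wild-type leaves it without a ratio on any scale.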
